A study of Mus musculus with 10 samples.

Results

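The immunity-related GTPases (IRGs) are interferon-gamma-induced proteins, and 7 of their genes are described here: Irgm1, Irgm2, Igtp, Ifi47, Tgtp1, Tgtp2 and Iigp1. They were chosen by gene symbol through the GENCODE annotation of the mm10 mouse genome, and all 7 were found among the 48526 genes of the count table. The study asked what acute mental stress changes in the cells lining the mouse aorta. The stressed group comprised 5 libraries from mice stressed for 3 h on each of 3 days in a row, and the non-stressed group comprised 5 libraries from mice without that exposure. The strain is given as ApoE for both groups, with no further genotype, age or sex, and both groups are labelled as aortic endothelial cells (AoECs) collected by fluorescence-activated cell sorting. Reads were counted per gene, with 18020220 to 30168890 counts in a stressed library and 24373063 to 38237346 in a non-stressed one. Levels are given as CPM, the counts of a gene per 1000000 counts of its library.

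The libraries went against their cell type label in both groups. Of 10 endothelial marker genes, Tek, Cldn5 and Emcn had 0 counts in every library, and Cdh5, which encodes VE-cadherin, stayed at or below 0.992 CPM. The 10 markers summed to 32.7 to 79.9 CPM in the stressed and 37.2 to 88.4 CPM in the non-stressed libraries. The 10 monocyte and macrophage markers summed to 29677 to 36810 CPM in the stressed and 25082 to 37117 CPM in the non-stressed libraries, led by the lysozyme gene Lyz2. Ptprc, which encodes the leukocyte antigen CD45, averaged 2781 CPM in stressed and 2943 CPM in non-stressed libraries. Apoe itself was counted at 14.9 to 28.4 CPM over all libraries.

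Interferon-gamma acts through a receptor of the IFNGR1 and IFNGR2 chains and the kinases JAK1 and JAK2. Promoters of its target genes can carry gamma-activated sequences (GAS), and interferon-induced genes more widely carry the interferon-stimulated response element (ISRE). In mouse macrophages the induced IRG proteins gather on the vacuole that holds an intracellular pathogen and break it open. Effector IRGs do this work and carry a lysine in the first nucleotide-binding motif, the P-loop (GKS class). Regulator IRGs carry a methionine there (GMS class), sit on the membranes of the host cell and keep effectors inactive on them. Loading onto vacuoles also needs the enzymes that attach ubiquitin-like ATG8 proteins to membranes.

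The P-loop divided the 7 genes into both classes at the level of the coding sequence. These stretches are shown because the order of the results follows them. They were read from the GENCODE vM21 transcripts of mm10, and capitals mark the codon that separates the classes, ATG for methionine or AAG for lysine.
Irgm1: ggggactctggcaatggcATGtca
Irgm2: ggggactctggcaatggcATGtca
Igtp: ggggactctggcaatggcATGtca
Ifi47: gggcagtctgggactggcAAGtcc
Tgtp1: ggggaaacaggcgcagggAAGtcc
Tgtp2: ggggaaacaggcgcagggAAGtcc
They lie at chr11:48866761-48866784 for Irgm1, chr11:58219695-58219718 for Irgm2 and chr11:58206275-58206298 for Igtp. Those of the others lie at chr11:49095648-49095671 for Ifi47, chr11:48987667-48987690 for Tgtp1 and chr11:49059534-49059557 for Tgtp2. The 3 regulators Irgm1, Irgm2 and Igtp had the same 24 bases, while their whole coding sequences were 63.3% to 67.4% identical between pairs. Iigp1, whose sequence is not printed, belonged to the GKS class. Tgtp1 and Tgtp2 were nearly the same gene, with 4 differing bases in 1245 aligned positions (99.7% identity).

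The promoters of 5 members held GAS or ISRE letters close to the transcription start. Windows from 250 bases before to 50 after the start (RefSeq, GRCm38.p6) were matched for 6 of the 7 members, all but Iigp1. Both strands were searched for TTCNNNGAA (GAS) and for GAAA followed after any 2 bases by GAAA (ISRE), whose matches may overlap. The stretches around the matches are shown because members that respond to the same cytokine can be compared in them; capitals mark the matched letters, GAS first where both occur.
Igtp: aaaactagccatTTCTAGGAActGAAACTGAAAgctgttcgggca
Irgm2: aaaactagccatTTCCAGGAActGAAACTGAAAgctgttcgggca
Tgtp1: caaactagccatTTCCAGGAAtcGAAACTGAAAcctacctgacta
Tgtp2: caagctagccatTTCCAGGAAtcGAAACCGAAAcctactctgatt
Irgm1: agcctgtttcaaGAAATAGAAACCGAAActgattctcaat
These run in the direction of transcription at chr11:58199499-58199543 (plus strand) for Igtp and chr11:58214890-58214934 (plus strand) for Irgm2. The minus-strand stretches are chr11:48992302-48992346 for Tgtp1, chr11:49064261-49064305 for Tgtp2 and chr11:48871423-48871462 for Irgm1. Igtp, Irgm2, Tgtp1 and Tgtp2 shared a GAS followed after 2 bases by an ISRE, and Irgm1 held 2 overlapping ISRE matches and no GAS. The Ifi47 window held neither set of letters. Of 32851 promoter windows of 27025 genes, 8.30% held the GAS, 3.44% the ISRE and 0.454% both. That arrangement, a GAS and then an ISRE after 2 bases, was noted from these very genes. It occurred in 5 windows (0.0152%): those of Igtp, Irgm2, Tgtp1, Tgtp2 and the neighbouring IRG gene Gm12185. A match describes letters and not binding.

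**Figure D1:**
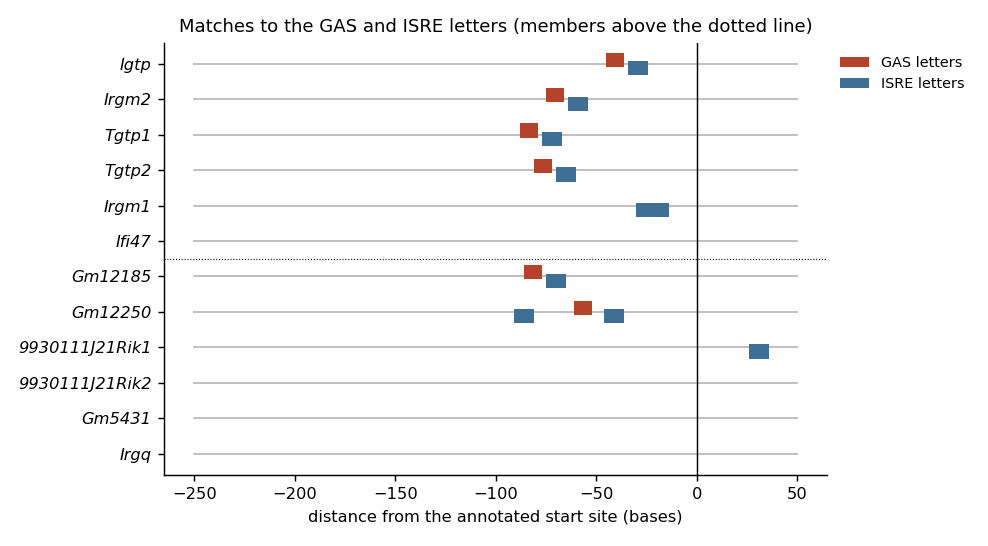
Each line is the promoter window of 1 gene, and the horizontal axis gives the distance from the annotated start site in bases. Red blocks are matches to the GAS letters and blue blocks matches to the ISRE letters. Igtp, Irgm2, Tgtp1, Tgtp2 and Gm12185 show a red block directly followed by a blue one, while the Ifi47 line is empty.

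All 7 IRG genes had lower mean levels in the stressed than in the non-stressed libraries, and none passed the test of the difference. Their log2 fold changes, stressed over non-stressed, ran from -1.90 for Iigp1 to -0.13 for Tgtp1 with a median of -0.30, against a median of 0.0045 over all 13334 genes tested. All 7 members were among the genes tested. In the edgeR quasi-likelihood test with Benjamini-Hochberg adjustment over all genes, 0 of 7 members passed an adjusted p of 0.05, where 0.0075% of all genes did in either direction and 0% did as lower in stressed. DESeq2, which called 0.126% of the genes it tested, limma-voom (0.015%) and edgeR with no low-count filter (0.043%) also called 0 of the 7. At an unadjusted p under 0.05, 4 members were lower in edgeR, where 393 of all 13334 genes (2.95%) were. In DESeq2 5 members were, where 565 of 15079 genes were. In limma-voom 4 members were, where 642 of 13334 genes were. A fold change below 0 was found for 49.1% of all genes. The 7 were chosen with such results known, so these counts are a description. In bulk RNA, fewer cells of a type and less RNA per cell cannot be told apart.

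**Figure D2:**
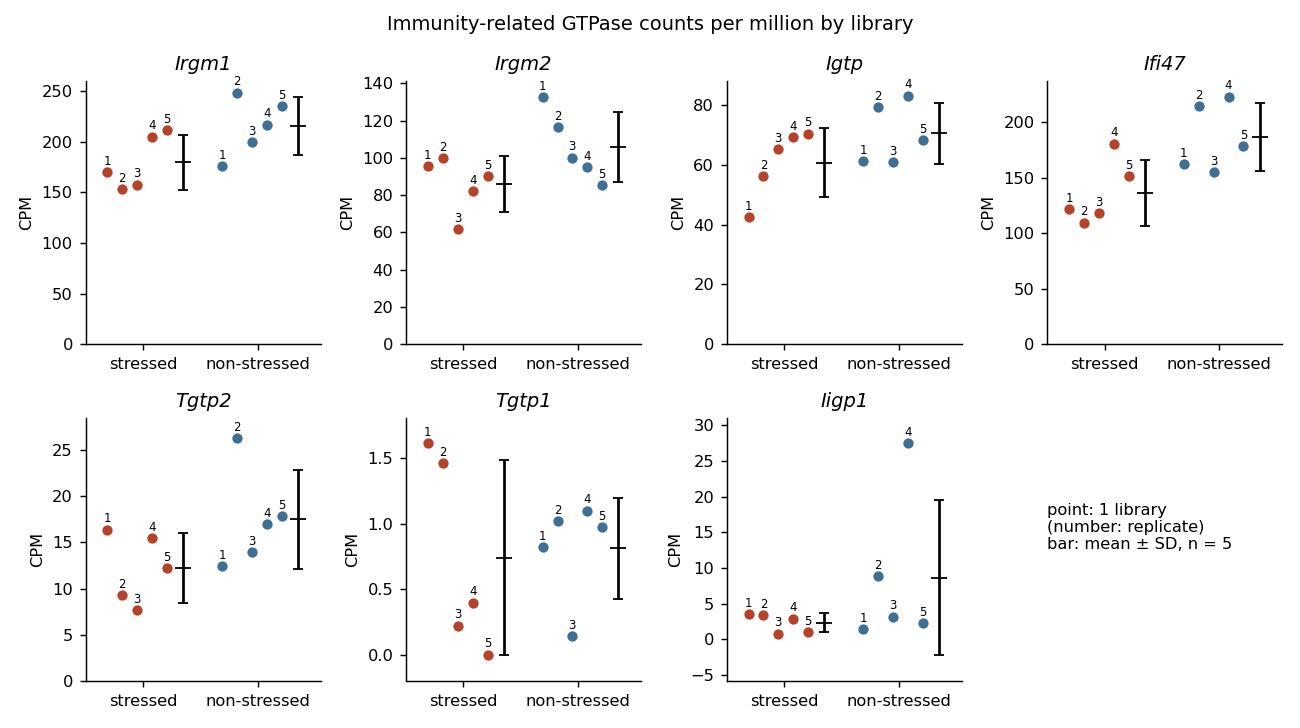
CPM of the 7 IRG genes in each library (points, with the replicate number), stressed in red on the left and non-stressed in blue on the right of each panel; bars are the mean and SD of 5 libraries. Ifi47 has 4 stressed points below every non-stressed one, and Iigp1 has 1 non-stressed point, at 27.5 CPM, far above the others.

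Among the regulators, Irgm1, whose loss leaves mice unable to control many intracellular bacteria, was the most abundant in CPM. It had 170.1, 153, 157, 205 and 211 CPM in stressed libraries 1 to 5, against 176, 248, 199, 217 and 235 CPM in non-stressed libraries 1 to 5. Stressed libraries 1, 2 and 3 lay below every non-stressed library, and the other 2 lay inside the non-stressed range. The log2 fold change was -0.26 (SE 0.11, adjusted p = 0.876, edgeR). Irgm2, a regulator of the Golgi apparatus, had 95.6, 100.03, 61.6, 82.0 and 90.1 CPM in stressed libraries 1 to 5. In non-stressed libraries 1 to 5 it had 133, 117, 100.2, 94.9 and 85.3 CPM. Stressed libraries 3 and 4 lay below all non-stressed ones, and the groups overlapped. Its log2 fold change was -0.30 (SE 0.14, adjusted p = 0.893), and without stressed replicate 3, the lowest library, it was -0.20. Igtp, also called Irgm3 and found on the endoplasmic reticulum and lipid droplets, had 42.6, 56.2, 65.3, 69.5 and 70.5 CPM in stressed libraries 1 to 5. It had 61.3, 79.5, 61.1, 83.3 and 68.2 CPM in non-stressed libraries 1 to 5. Here stressed libraries 1 and 2 were the lowest, and the other 3 lay within the non-stressed range. The log2 fold change of Igtp was -0.21 (SE 0.14, adjusted p = 0.949), and -0.11 without stressed replicate 1. Igtp and Irgm2 share 162 exon bases on the same strand (8.01% of Igtp and 4.39% of Irgm2), so reads there belong to neither alone. Of the other members, Tgtp1 shares 223 exon bases with Gm12185 on the same strand (6.96% of Tgtp1). Ifi47 shares 111 with Olfr56 on the same strand and 106 with Gm12188 on the other (8.77% of Ifi47 in all).

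Ifi47 (Irgd), an effector, was the most abundant IRG gene per kilobase and had the smallest p of the members. It had 122, 109.6, 118, 181 and 152 CPM in stressed libraries 1 to 5, against 162, 215, 155, 223 and 179 CPM in non-stressed libraries 1 to 5. All stressed libraries except number 4 lay below every non-stressed library. The means were 136 ± 29.5 CPM in stressed and 187 ± 30.6 CPM in non-stressed libraries (SD, n = 5 each). Its log2 fold change was -0.45 (SE 0.14) with an unadjusted p of 0.00609, which ranked 93 among all genes, and an adjusted p of 0.829. Across every alternative run, among them 10 fits that each leave out 1 library, the log2 fold change stayed between -0.58 and -0.38, and the lowest adjusted p was 0.227.

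Tgtp2 and Tgtp1 (Irgb6), near-identical neighbours whose protein is among the first to load onto a parasite vacuole, were counted at very different levels. Tgtp2 had 16.4, 9.28, 7.66, 15.5 and 12.2 CPM in stressed libraries 1 to 5, against 12.4, 26.3, 14.0, 17.0 and 17.8 CPM in non-stressed libraries 1 to 5. Stressed libraries 2, 3 and 5 were below all non-stressed ones. Its log2 fold change was -0.51 (SE 0.24, adjusted p = 0.893), and -0.33 without non-stressed replicate 2, the highest library. Tgtp1 had 35, 33, 4, 12 and 0 reads in stressed libraries 1 to 5, against 20, 39, 5, 28 and 28 reads in non-stressed libraries 1 to 5. Its highest and its lowest CPM both came from stressed libraries. The 0 in stressed library 5 allows a level of up to 0.114 CPM, taken as 3 counts and covering counting error only. The log2 fold change of Tgtp1 was -0.13 (SE 1.03, adjusted p = 0.998) and changed sign when single libraries were left out, up to 0.18 without stressed replicate 5. Of the 50-base windows of the transcripts, 81.2% of those of Tgtp1 and 86.6% of those of Tgtp2 occur in another gene, mostly in each other. The treatment of reads shared by both is not given in the sources used here. The split between them is therefore uncertain. Their sum was 12.9 ± 4.04 CPM in stressed and 18.3 ± 5.57 CPM in non-stressed libraries (SD, n = 5 each). The fold change of the summed counts was -0.50 on the log2 scale (SE 0.24, adjusted p = 0.895), and -0.31 without non-stressed replicate 2.

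Iigp1 (Irga6), the effector whose structure and assembly on the vacuole of Toxoplasma gondii are best studied, varied most of the members between non-stressed libraries. It had 3.51, 3.42, 0.777, 2.88 and 0.992 CPM in stressed libraries 1 to 5, against 1.44, 8.84, 3.15, 27.5 and 2.30 CPM in non-stressed libraries 1 to 5. Non-stressed libraries 4 and 2 stood above all stressed ones, and the other 3 lay among them. The coefficient of variation was 57.5% in the stressed and 126% in the non-stressed group. That of Tgtp1 was 101% in the stressed and 47.8% in the non-stressed group. The log2 fold change of Iigp1 was -1.90 (SE 0.72, adjusted p = 0.874), while leaving out non-stressed replicate 4 gave -0.76 (adjusted p = 0.924). Iigp1 lies on chromosome 18 from 60376027 to 60392634 of mm10, plus strand, apart from the other 6 members.

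**Figure D3:**
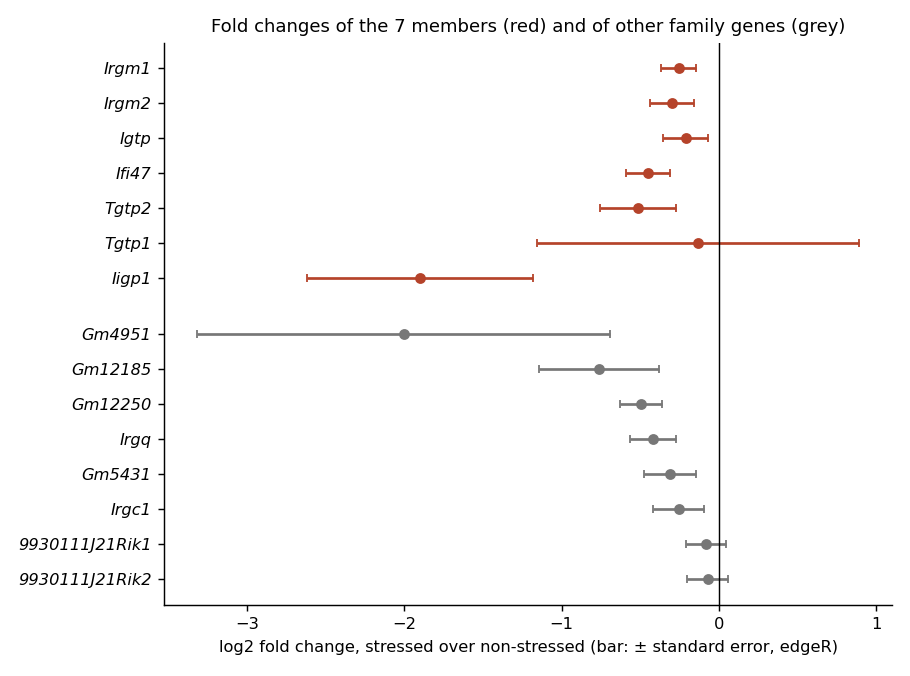
Points are log2 fold changes, stressed over non-stressed, from edgeR, with bars of 1 standard error; members are red and the 8 other IRG genes tested are grey. All points lie left of 0, and the bars of Tgtp1, 9930111J21Rik1 and 9930111J21Rik2 reach across it.

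Summed over the 7 genes, IRG reads made up 478 ± 64.6 CPM in stressed and 606 ± 71.4 CPM in non-stressed libraries (SD, n = 5 each). The 3 regulators gave 326 ± 36.6 CPM in stressed and 392 ± 32.6 CPM in non-stressed libraries, and the 4 effectors 152 ± 31.4 CPM in stressed and 214 ± 43.7 CPM in non-stressed libraries. The ratio of effector to regulator reads was 0.463 ± 0.0592 in stressed and 0.543 ± 0.0845 in non-stressed libraries, ranges that overlapped. Irgm1 took 37.5% of the summed reads in stressed and 35.6% in non-stressed libraries, and Ifi47 28.3% in stressed and 30.7% in non-stressed libraries. Scaled by exon length, the order was different. Ifi47 led with 55.1 ± 11.9 CPM per kilobase of exon in stressed and 75.5 ± 12.4 in non-stressed libraries. Irgm1 followed with 30.9 ± 4.65 CPM per kilobase in stressed and 37.0 ± 4.94 in non-stressed libraries. Igtp, at 30.1 ± 5.75 CPM per kilobase in stressed and 34.9 ± 5.09 in non-stressed libraries, did not differ from Irgm1 beyond the spread. Irgm2 stood at 23.3 ± 4.11 in stressed and 28.7 ± 5.10 in non-stressed libraries. Its means were lower than those of Igtp, with library ranges that overlapped in both groups. Tgtp2 reached 4.15 ± 1.29 CPM per kilobase in stressed and 5.95 ± 1.83 in non-stressed libraries. Iigp1 and Tgtp1 came last, with means of 0.398 and 0.231 CPM per kilobase in stressed and 1.48 and 0.253 in non-stressed libraries, and their spreads overlapped (SD, n = 5 each).

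The members did not all vary together from library to library. With group means removed, Pearson's r over the 10 libraries was above 0 for 15 of 21 pairs, with a median of 0.229. All genes of a library share its depth and preparation, so the values are a description. Irgm1 and Ifi47 were the closest pair (r = 0.816), followed by Irgm1 and Tgtp2 (r = 0.743) and Igtp and Ifi47 (r = 0.729). Irgm2 ran apart from its class, at r = -0.36 with Igtp and r = -0.16 with Irgm1. Igtp and Tgtp1 were lowest at r = -0.40. Tgtp1 had only 204 reads in all, and without it 12 of 15 pairs were above 0. Against the mean z-score of the members, the 5 most similar of 13327 other genes were Alkbh2 (r = 0.888), Pid1 (r = 0.886), Irf4 (r = 0.869), Ifit2 (r = 0.864) and Baz1a (r = 0.855) over 10 libraries. These are the extremes of 13327 values from few libraries, and Alkbh2 had only 0.739 to 3.08 CPM. The guanylate-binding protein gene Gbp2 ranked 81 (r = 0.737) and the further IRG gene Gm12250 ranked 921 (r = 0.482).

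**Figure D4:**
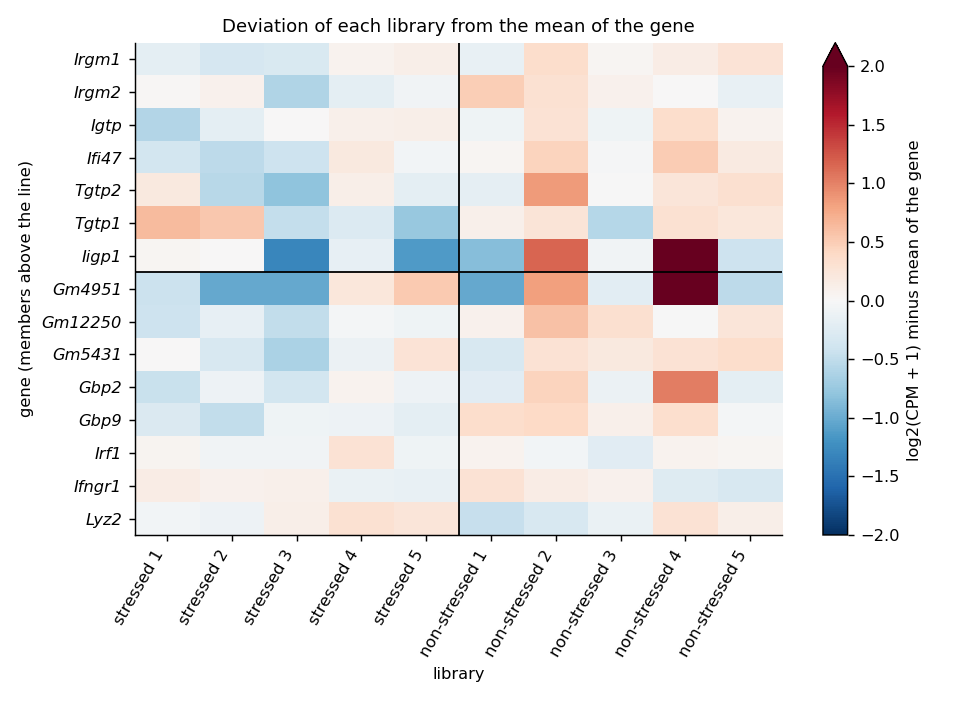
Colour shows log2(CPM + 1) of a gene in a library minus the mean of that gene over the 10 libraries, from blue (lower) to red (higher); values above 2 take the darkest red. Stressed libraries are left of the vertical line, and members lie above the horizontal one. Non-stressed library 4 is darkest for Iigp1 and Gm4951, and stressed library 3 is blue for Irgm2, Tgtp2 and Iigp1.

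Most members sit in clusters with further IRG genes. In mm10 (GENCODE vM21), Irgm1 (chr11:48861968-48871683), Tgtp1 (chr11:48985327-48994172) and Tgtp2 (chr11:49057194-49064206) lie on the minus strand, and Ifi47 (chr11:49076587-49096974) lies on the plus strand beside them. Igtp (chr11:58199556-58207591) and Irgm2 (chr11:58199618-58222782) overlap on the plus strand farther along. Of 10 other IRG genes, 8 were tested. All 8 had log2 fold changes below 0, with a median of -0.36 and 2 at an unadjusted p under 0.05, and 0 passed the adjusted threshold. Without stressed replicate 3, 7 were lower and 1 higher. Gm12250 (chr11:58187739-58189012), listed by RefSeq as Irgb10 and annotated in GENCODE vM21 as a processed pseudogene, lies next to Igtp. IRGB10 protein attacks the membranes of cytosolic bacteria in mouse macrophages. It had 26.0, 30.9, 24.5, 33.8 and 32.9 CPM in stressed libraries 1 to 5, against 37.0, 52.7, 43.7, 34.7 and 41.4 CPM in non-stressed libraries 1 to 5. The groups did not overlap, as for 0.517% of all genes in this direction. The log2 fold change of Gm12250 was -0.50 (SE 0.14, adjusted p = 0.703). Irgq, a distant relative on chromosome 7, stood at -0.42 (SE 0.15, adjusted p = 0.836), and Irgc1, also there, had -0.26 (SE 0.16). On chromosome 11, Gm12185 stood at -0.76 (SE 0.38), Gm5431 at -0.31 (SE 0.16), 9930111J21Rik1 at -0.08 (SE 0.13) and 9930111J21Rik2 at -0.07 (SE 0.13). The last 3 share 37.3% to 82.9% of their 50-base windows with other genes. Gm4951, a chromosome 18 neighbour of Iigp1, had -2.003 (SE 1.31), and 0.769 ± 0.869 CPM in stressed and 3.14 ± 5.02 CPM in non-stressed libraries. Gm4841 and F830016B08Rik, in the same chromosome 18 cluster, had 35 and 92 reads in all and were left out by the low-count filter.

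Upstream, the interferon-gamma pathway showed no common direction. Ifng itself had 57 reads in all and was left out by the low-count filter. In stressed libraries 1 to 5 it had 0, 8, 0, 0 and 0 reads. Non-stressed libraries 1 to 5 held 13, 22, 8, 0 and 6 reads of it. The receptor genes were abundant: Ifngr1 averaged 794 ± 74.3 CPM in stressed and 791 ± 142 CPM in non-stressed libraries (SD, n = 5 each). The log2 fold changes of Ifngr1, Ifngr2 and Jak1 were 0.01 (SE 0.11), 0.03 (SE 0.077) and -0.06 (SE 0.095). The kinase gene Jak2 stood at -0.19 (SE 0.086) and the feedback inhibitor Socs1 at -0.47 (SE 0.26), while the early target Irf1 stood at 0.05 (SE 0.087). Nfil3, a transcription factor, was at 0.44 (SE 0.18) and Cebpb at 0.22 (SE 0.11). Of the 17 tested of 18 signalling genes, 8 were higher and 9 lower, with a median of -0.02 (-0.051 to -0.0036 with single libraries left out) and 0 called. At an unadjusted p under 0.05, 1 of them was higher and 2 lower, where 738 of all 13334 genes were in either direction, 393 of them lower.

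Among 24 interferon-gamma target genes, 20 were tested, 16 lower and 4 higher, with a median of -0.28 on the log2 scale, 4 lower at an unadjusted p under 0.05 and 0 called. Tap1, the peptide transporter of class I antigen presentation, had -0.28 (SE 0.089) and its activator Nlrc5 -0.34 (SE 0.11). Ciita, the master activator of class II genes, had -0.78 (SE 0.28). The chemokine gene Cxcl9, which interferon-gamma induces strongly, had 2.40 ± 1.18 CPM in stressed and 2.94 ± 1.21 CPM in non-stressed libraries (SD, n = 5 each) and a log2 fold change of -0.28 (SE 0.48). Without non-stressed replicate 4 the median of the list was -0.14, and without stressed replicate 1 or 2 it was -0.18. The guanylate-binding proteins, large GTPases that act beside IRGs at the vacuole, had 8 of 8 tested genes lower with a median of -0.46. Without non-stressed replicate 4 these were 6 lower and 2 higher, with a median of -0.18. Gbp9 stood at -0.47 (SE 0.10, adjusted p = 0.429), Gbp4 at -0.75 (SE 0.29), Gbp2 at -0.45 (SE 0.21) and Gbp8 at -0.72 (SE 0.45), and edgeR called 0 of the 8 (2 at an unadjusted p under 0.05), while DESeq2 called 1 of 10.

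The lists of autophagy and vacuole genes, only some of whose products load IRGs onto vacuoles, held genes of both directions, unlike the IRG genes. Of 20 genes of ATG8 conjugation and autophagy, all tested, 15 were higher and 5 lower, with a median of 0.065 on the log2 scale. In edgeR 0 were called, and 1 was higher at an unadjusted p under 0.05. That level held 738 of all 13334 genes in either direction, 393 of them lower. Without non-stressed replicate 5, 12 of the 20 autophagy genes were higher and 8 lower, with a median of 0.043. Atg5, part of the enzyme that attaches ATG8 proteins, averaged 51.5 ± 4.71 CPM in stressed and 39.6 ± 7.47 CPM in non-stressed libraries (SD, n = 5 each). The log2 fold change of Atg5 was 0.38 (SE 0.13, adjusted p = 0.836). Its partner Atg12 stood at 0.18 (SE 0.12), the activating enzyme Atg7 at 0.13 (SE 0.086) and the ATG8 gene Map1lc3b at 0.15 (SE 0.075). Of 12 genes of vacuole recognition and ubiquitin, 11 were tested, 5 higher and 6 lower, with a median of -0.11, 1 lower at an unadjusted p under 0.05 and 0 called. That median was -0.04 without non-stressed replicate 4. Rnf213, a large ubiquitin ligase that interferons induce, had -0.38 (SE 0.12) and the deconjugating protease Usp18 -0.37 (SE 0.17), while Lgals3, a galectin that marks broken vacuoles, had 0.17 (SE 0.091). Of the type I interferon receptor genes and their factors, 2 of 6 tested were higher and 4 lower, with Irf7 at -0.27 (SE 0.15), Stat2 at -0.21 (SE 0.16) and Irf3 at 0.14 (SE 0.10). None of these 6 had an unadjusted p under 0.05 in edgeR, and Ifnb1 had 0 reads.

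**Figure D5:**
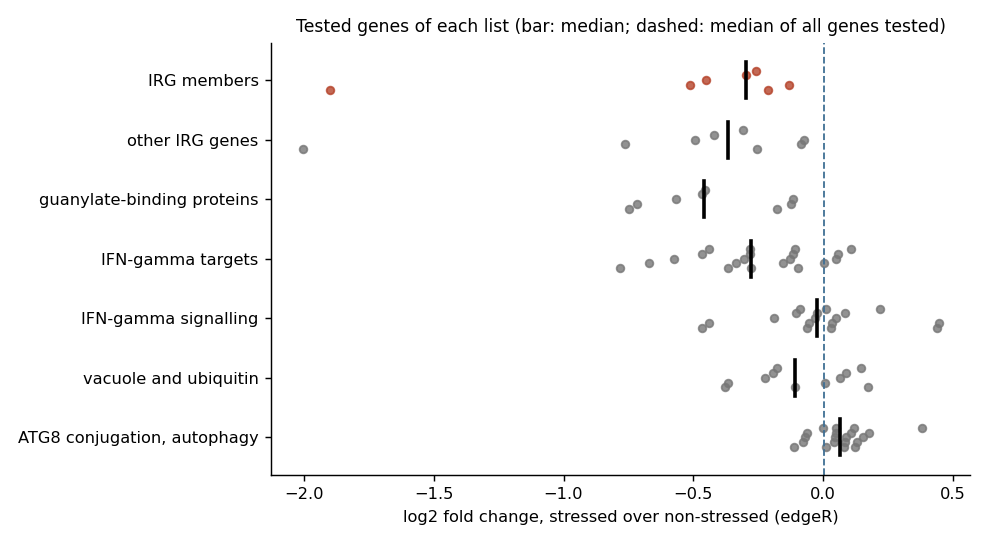
Each point is 1 tested gene at its log2 fold change, stressed over non-stressed, from edgeR; rows are gene lists, short black bars their medians, and the dashed line the median of all genes tested. The medians of the IRG members (-0.30), the other IRG genes (-0.36) and the guanylate-binding proteins (-0.46) lie left of the dashed line, while those of the signalling genes (-0.02) and the autophagy genes (0.065) lie close to it.

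Lymphocytes include the cells that make interferon-gamma, and most of their markers had fold changes below 0, with none past the threshold. The 12 T and NK cell markers summed to 14.8 to 95.5 CPM in stressed and 24.8 to 147 CPM in non-stressed libraries, and 10 of the 12 had fold changes below 0 (median -0.62 on the log2 scale), with 0 called. No marker of that list was at 0 in every library. With the level of these markers as a covariate, Ifi47 had a log2 fold change of -0.52, Irgm1 -0.30, Igtp -0.30, Irgm2 -0.21, Tgtp2 -0.47, Tgtp1 -0.45 and Iigp1 -1.88, all with adjusted p of 0.357 or more in edgeR, where 0.0375% of all genes were called. The 8 B cell markers summed to 342 to 639 CPM in stressed and 483 to 933 CPM in non-stressed libraries, with 8 of 8 lower and a median of -0.26. The 7 dendritic cell markers summed to 132 to 264 CPM in stressed and 159 to 339 CPM in non-stressed libraries, with 5 of 7 lower and a median of -0.15. Markers of other blood cells were mostly higher, with 0 called. These were 7 of 7 erythroid (median 0.72), 7 of 8 platelet (median 0.37) and 7 of 10 neutrophil markers (median 0.24). Of the 10 monocyte and macrophage markers, 4 were higher and 6 lower (median -0.066). The part of T, NK, B or dendritic cells in the IRG values was not tested, as the covariate was only a mean marker level.

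Libraries also differed in sex-linked transcripts, evenly between the groups. The X-inactivation transcript Xist was counted in 4 libraries, 2 of each group. The other 6, 3 of each group, held more than 100 reads of Ddx3y, a Y-linked gene. Between group means of log2 CPM, the median difference of the 7 members was -0.18 in the 4 libraries with Xist, where 6 members were lower, and -0.38 in the 6 with Y-linked reads, where all 7 were lower. Ifi47 differed by -0.31 with Xist and -0.56 with Y-linked reads, and Irgm1 by -0.09 and -0.37. Iigp1 differed by 0.06 and -2.17, and Tgtp2 by -0.06 and -0.83. Irgm2 differed by -0.18 and -0.38, and Igtp by -0.22 in both sets. For Tgtp1 it was -1.45 with Xist and -0.12 with Y-linked reads. The difference between the sets was not tested, and with Ddx3y as a covariate the log2 fold changes of the 7 ran from -1.44 for Iigp1 to -0.13 for Tgtp1.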

How the data were processed

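RNA was extracted from sorted cells with a PicoPure kit and made into TruSeq Stranded libraries, per the labels' protocols. Trimmomatic, STAR, featureCounts and the mm10 build are named, per the submitters' processing notes; the sources used here give no versions, annotation, strand setting or handling of reads with several matches. The deposited values are raw read counts per gene, not normalized by the authors. Of 48526 gene identifiers, 48058 matched a symbol in GENCODE vM21, from which coordinates were taken.

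The test was run in edgeR 4.0.16 (R 4.3.3) with filterByExpr (minimum count 10), TMM factors, group as the only term, the quasi-likelihood F test and Benjamini-Hochberg adjustment at 0.05 over 13334 genes. Standard errors are the size of the log2 fold change over the root of F. CPM uses the plain library total; a count of 0 allows 0.0785 to 0.166 CPM, depending on the library, for counting error only. No 2 libraries of a group were duplicates by a chi-square test of their counts. Groups and replicate numbers come from the titles. No source says that replicates are separate animals, and a p-value therefore measures only how these samples spread.

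The members, the other gene lists and the marker lists were chosen with earlier results of these data known. Named genes are the members, tested relatives, up to 4 of each list with the smallest p, 10 pathway genes in every case (1 of them is not reported here), the 5 genes most similar to the members, and Apoe, Ptprc, Lyz2 and Cdh5; genes named at 0 reads, Gm4841 and F830016B08Rik were added after their values were seen. Alternatives were RLE and upper-quartile factors, library totals, DESeq2 1.42.0, limma-voom (limma 3.58.1) with quality weights, robust dispersion, 2 other filters, a threshold of 0.1 (added for the Tgtp sum after the data were seen), the replicate block, abundant genes left out, Ddx3y or T and NK markers as a covariate, and each library left out. Coding sequences stood in for proteins, which were not used here.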

Additional observations from a re-analysis of the deposited data

Results flagged for a closer look

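In groups of 5 libraries, a library was looked at again when its gap to the nearest other library exceeded 0.71 of the range of the group (Dixon's 95% value). For independent, normally distributed values chance marks about 1 in 20 groups, and 7 of the 34 groups tested (17 IRG genes) were marked. Genes with few reads or shared sequence do not meet that condition, so the number marked is a description. Non-stressed library 4 was marked as the highest for 4 genes of the chromosome 18 cluster. Iigp1 stood at 27.5 CPM there, with the next library at 8.84 CPM. Gm4951 stood at 11.9 CPM, with the next at 2.59 CPM, F830016B08Rik at 2.40 CPM, with the next at 0.183 CPM, and Gm4841 at 0.943 CPM, with the next at 0.262 CPM. The same library held the highest Gbp2 level (196 CPM) and the highest Cxcl10 level (24.4 CPM). It also held the lowest Gm12250 level of the non-stressed group (34.7 CPM) and 0 reads of Ifng. In the stressed group, Gm4841 had 1 read in library 4 (0.0331 CPM) and 0 in the others. Non-stressed library 1 was marked as the lowest for Gm5431, at 45.7 CPM with the next at 65.5 CPM, and for 9930111J21Rik2, at 97.5 CPM with the next at 135 CPM; these genes share much of their sequence.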

How the results depend on the processing

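No member passed the threshold in any of the 23 alternatives; the lowest adjusted p was 0.227 for Ifi47, with the replicate block, and 0.440 or more for the others. The log2 fold changes of Igtp, Irgm1, Irgm2, Iigp1, Tgtp2 and Ifi47 and of the Tgtp sum kept their sign throughout; the filter of at least 10 CPM left no value for Iigp1 and Tgtp1. Leaving out single libraries gave -0.28 to -0.11 for Igtp, -0.33 to -0.21 for Irgm1, -0.37 to -0.20 for Irgm2, -2.18 to -0.76 for Iigp1, -0.65 to -0.33 for Tgtp2, -0.58 to -0.38 for Ifi47 and -0.65 to -0.31 for the Tgtp sum. Tgtp1 reversed when stressed replicate 3 (0.096), 4 (0.018) or 5 (0.18) or non-stressed replicate 4 (0.0043) was left out, in a range of -0.64 to 0.18. The member median ran from -0.41 to -0.24 in those fits and from -0.46 to -0.30 in the others. Over all genes, 1 was called higher and 0 lower. DESeq2 called 14 higher and 5 lower (0.126% of 15079 genes), the fit with no low-count filter 7 and 3 (0.043%), the replicate block 3 and 1 (0.03%), the T and NK covariate 5 and 0 (0.0375%), limma-voom 2 and 0 (0.015%), and leaving out single libraries 1 to 2 and 0. The cause was not tested. The median of the interferon-gamma targets was -0.14 with limma-voom. Whether replicate numbers pair the samples is not known, and the fit without the block was kept because nothing in the labels says that they do. Same-numbered libraries correlated at 0.128, 0.156, -0.027, 0.118 and 0.124, and 4 of 5 stressed libraries correlated best with their own number; both libraries of each number held the same sex-linked transcript, Xist or Ddx3y. With the replicate block the fold changes were -0.22 for Igtp, -0.26 for Irgm1, -0.30 for Irgm2, -1.37 for Iigp1, -0.58 for Tgtp1, -0.52 for Tgtp2, -0.46 for Ifi47 and -0.51 for the Tgtp sum. Depth limits Tgtp1 (204 reads in all), Gm4841, F830016B08Rik and Ifng, for which a difference could go unseen. The fit with no low-count filter tested all 10 other IRG genes and all 18 signalling genes, and called 0 of them.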
